A study of Gallus gallus with 16 samples.

Results

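Solute carrier (SLC) genes encode membrane proteins that move sugars, amino acids, vitamins, metals, bile acids, nucleosides and inorganic ions across cell membranes. The genes described here are the chicken SLC genes measured in jejunum, which lies between duodenum and ileum, other than the mitochondrial SLC25 family and 16 named carriers, most of them of nutrient absorption, such as the glucose carrier SLC5A1 and the peptide carrier SLC15A1. They were taken as all probe sets with a single gene symbol made of SLC, a family number, A or B and a member number, and each gene was represented by its probe set with the highest mean over all arrays. This gave 186 genes from 195 probe sets, among 11528 genes with a single symbol and 20804 probe sets on the array. Of the 186, 3 are named after a carrier without being one: the scaffold proteins SLC9A3R1 and SLC9A3R2, and SLC4A1AP. Another 5 carry the suffix L for a like gene.

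Most SLC proteins move a solute either down its own gradient or against it, by coupling it to sodium, protons or an exchanged ion. The gradients are kept up by ion pumps such as the sodium pump of the basolateral membrane. In the small intestine, carriers of the brush border take solutes up from the lumen, carriers of the basolateral membrane release them to the blood, and others serve the cell's own needs, the Golgi, the endoplasmic reticulum, vesicles or mitochondria. Enterocytes differentiate as they move from crypt to villus tip, so the set of carriers a cell makes differs between dividing crypt cells and absorptive villus cells. The roles given below are known mainly from mammals.

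Jejunal RNA of 16 male broilers was measured on day 21, with 1 array per bird and 4 birds on each of the diets A, E, F and H. The study concerned feed with plant additives, saponins and essential oils from star anise, oregano, thyme and rosemary. The labels do not say which letter stands for which additive, which letter is the control, or whether birds shared a pen, so the question was whether SLC genes differed in level between any of the 4 diets, and no letter was taken as the reference. Values are log2 intensities, and all differences below are on the log2 scale, the diet named first minus the other.

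Array medians lay between 5.94 and 6.10. The mean level of the 5 measured of 7 enterocyte markers (ANPEP, APOA4, FABP2, CDH17 and CDHR2) was 11.96 to 12.36 on diet A, 12 to 12.39 on E, 12.20 to 12.35 on F and 12.18 to 12.47 on H (the lower quartile of an array was 4.45 to 4.61). The 4 measured pancreas markers averaged 4.59 to 4.97, and the 4 liver markers 3.76 to 4.63 in 15 birds and 5.56 in diet E replicate 3, which stood apart. Cell cycle markers (CDK1, TOP2A, PLK1, MKI67 and BUB1, 5 of 6 on the list) differed more between birds: their mean level was 6.83 to 7.90 on diet A, 5.83 to 7.69 on diet E, 6.28 to 6.75 on diet F and 5.25 to 7.76 on diet H. All 5 had lower means on E, F and H than on A, with medians of -0.89, -0.88 and -1.17. Of them 0 passed limma's test, and 1, 3 and 4 had an unadjusted p under 0.05. Of all probe sets 7.71%, 6.83% and 11.5% had one in these pairs. The 5 measured of 6 enteroendocrine markers averaged 6.29 to 7.01 on A, 6.57 to 7.17 on E, 6.71 to 7.25 on F and 7.15 to 7.47 on H, without overlap between A and H. H minus A had a median of 0.61, with 5 of 5 higher, 4 at an unadjusted p under 0.05 (11.5% of all probe sets) and 0 passing. Among the 4 was CHGB, whose mean of 3.40 and values on all 16 arrays were below the lower quartile. The 2 measured of 4 B lymphocyte markers averaged 8.44 to 9.72 on A, 7.50 to 9.76 on E, 7.30 to 8.94 on F and 7.41 to 9.34 on H. Their H minus A had a median of -0.98, with 0 passing and 0 at an unadjusted p under 0.05. The 2 genes were unlike: the difference was -1.8 for JCHAIN (SD 1.43 over the birds) and -0.16 for CD79B (SD 0.27). The median therefore rests mainly on JCHAIN. The 6 T and NK lymphocyte markers averaged 7.55 to 8.70 on A, 7.85 to 8.13 on E, 8.02 to 8.34 on F and 7.26 to 8.24 on H. All 6 had lower means on E and on H than on A, with medians of -0.24 and -0.46, and 2 of 6 were higher on F than on A. None passed limma's test. In E minus A 0 and in H minus A 2 had an unadjusted p under 0.05, against 7.71% and 11.5% of all probe sets. The part of these cells in the differences of SLC genes was not tested. In whole tissue, fewer cells of a type and less RNA per cell cannot be told apart.

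No SLC gene differed between the diets after adjustment over all probe sets. Limma's F test, which asks whether any of the 4 means differ, called 0 of 186 genes at an adjusted p under 0.05, where 0% of all probe sets were called, and the smallest adjusted p was 0.581, for SLC22A15. At an unadjusted p under 0.05 it called 9 genes (4.84%), below the 8.15% of all probe sets; this unadjusted p is called the F p below, and the counts of it by role, 0 to 3 genes each, are to be read against that share. The diet means held a median of 20.5% of a gene's variance over the 16 birds, against 21.3% for all probe sets. They held over 40% in 10.2% of the SLC genes against 14.7% of all. With 4 means of 4 birds, part of the variance falls between diets even without any effect of diet. The shares of variance given here and below are therefore no measure of a diet effect by themselves. The median SD of an SLC gene over the birds was 0.25, as for all probe sets. Of the 186 genes, 132 lay above the lower quartile on every array, 28 below it on some and 26 below it on all. Levels of these 26 may be near background.

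The 6 pairs of diets also gave no adjusted call among the SLC genes, where 0% of all probe sets were called between E and A, F and A, F and E, H and E, and H and F, and 0.00481% (a single probe set) between H and A. Between E and A, 11 SLC genes were higher and 4 lower at an unadjusted p under 0.05 (5.91% and 2.15%, against 4.74% and 2.97% of all probe sets). After quantile normalization the split was 6 higher and 3 lower, and after median centring of the arrays 2 and 6, so the excess of higher calls depended on the scaling. Between F and A, 4 were higher and 3 lower (2.15% and 1.61%, against 3.78% and 3.05%). Quantile normalization gave 5 and 4, and median centring 5 and 5. Between H and A, 12 were higher and 6 lower (6.45% and 3.23%, against 5.62% and 5.91%). Quantile normalization also gave 12 and 6, and median centring 14 and 6. These 3 pairs share the diet A birds. Between F and E, 2 were higher and 0 lower, against 1.29% and 1.66% of all probe sets. The split was 1 and 1 after quantile normalization, and 3 and 0 after median centring. Between H and E, 6 were higher and 3 lower, against 3.86% and 5.66%, and between H and F, 4 were higher and 5 lower, against 2.02% and 3.25%. Median centring gave 8 and 1 for H against E, and 6 and 3 for H against F. Quantile normalization gave 6 and 2, and 4 and 4.

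The median difference of the 186 genes was close to that of all probe sets in every pair. It was 0.045 for E minus A (all probe sets 0.026), 0.051 for F minus A (0.025), 0.026 for H minus A (0.001), -0.005 for F minus E (-0.003), -0.011 for H minus E (-0.030) and -0.015 for H minus F (-0.025). The genes were spread to both sides: the widest range was that of H minus F, from -0.50 for the GABA carrier SLC6A13 to 1.42 for the amino acid carrier SLC6A14, which did not pass either (its values are given with the variable genes). Over all 186 genes 56.5% had a higher mean on H than on A, against 50.2% of all probe sets. By role these were 17 of 20 sodium, proton, bicarbonate and chloride carriers, 12 of 16 bile acid, sterol and organic ion carriers, 5 of 8 vitamin and haem carriers, 5 of 8 calcium exchangers and phosphate carriers, 12 of 21 sugar carriers, 9 of 16 zinc carriers and 6 of 11 nucleoside and nucleotide sugar carriers. Shares of 50% or less were found for amino acid and peptide carriers (16 of 32), organic acid, sulphate and anion carriers (12 of 26), metal carriers other than zinc (3 of 7), fatty acid, choline and lipid carriers (2 of 5), neurotransmitter and vesicle carriers (5 of 13) and the proteins named after a carrier (1 of 3). At an unadjusted p under 0.05 in limma, 1 of the 20 sodium, proton, bicarbonate and chloride carriers was higher on H and 1 lower. Of the 16 bile acid, sterol and organic ion carriers 2 were higher and 0 lower, against 5.62% and 5.91% of all probe sets. The role of sodium, proton, bicarbonate and chloride carriers does not hold every chloride carrier. All SLC26 genes, SLC26A9 among them, were counted with the organic acid, sulphate and anion carriers. SLC26A9 had a higher mean on H than on A, and SLC26A3, SLC26A4 and SLC26A7 had a lower one. Genes of a role can vary together (SLC9A3 and SLC12A7 had an r of 0.86), and differences between roles were not tested.

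**Figure D1:**
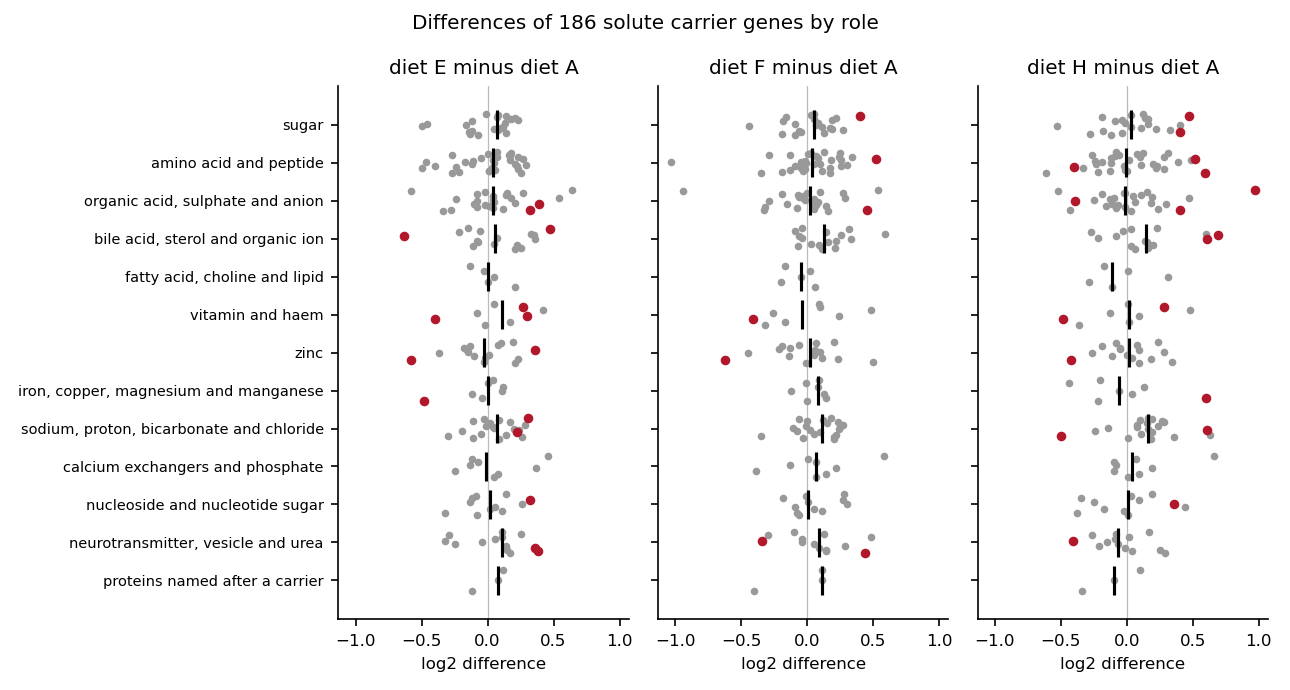
Log2 difference from diet A (horizontal axis) of each of 186 SLC genes, in rows by the role of the gene, for diets E, F and H. Grey dots are genes, red dots those with an unadjusted p under 0.05, and black bars the medians of each role. The row whose name includes urea holds no urea carrier. The dots lie on both sides of 0 in nearly every row, the medians lie between -0.11 and 0.16, and no dot passed after adjustment.

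Carriers of bile acids, sterols and organic ions held the gene with the smallest p. SLC22A15 (probe set 15402819), a carrier of zwitterions such as ergothioneine, was 7.48, 7.51, 7.53 and 7.79 in the 4 diet A birds, 7.65, 7.84, 8.13 and 8.09 on E, 7.58, 8.12, 8.24 and 7.42 on F, and 8.24, 8.27, 8.37 and 8.19 on H. All 4 diet H birds lay above all diet A and all diet E birds, the diet F birds split into a high pair and a low pair, and the diet H birds were close together. H minus A was 0.69 (SE 0.17), with an unadjusted p of 0.000987 and a limma adjusted p of 0.197, and 0.581 in the F test. The difference was 0.76 among birds with title numbers up to 25 and 0.62 among those over 25, a numbering in the sample titles that splits every diet into 2 and 2. With this range as a block the adjusted p of H minus A was 0.0689, the lowest over the alternatives tried, and the highest was 0.694. SLC22A23, a family member of unknown substrate, followed SLC22A15 most closely of all SLC genes over the 16 birds (r = 0.80) and had means of 8.18 ± 0.44 on A and 8.78 ± 0.13 on H (SD, n = 4 each), with an adjusted p of 0.284. The next closest were the amino acid carrier SLC38A4 (r = 0.71), SLC2A11 (0.68) and SLC45A4 (0.66). These 4 were chosen for their likeness, so r is given as a description.

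Of the 16 genes in this role, 3 had an F p under 0.05. SLC22A15L (probe set 15528768), annotated as a like gene of SLC22A15, had another order: its means were 5.95 ± 0.25 on A, 5.32 ± 0.25 on E, 5.89 ± 0.40 on F and 5.87 ± 0.44 on H (SD, n = 4). On diet A its birds lay at 5.62, 5.89, 6.16 and 6.13, and on diet E at 5.41, 5.18, 5.06 and 5.62, equal at the border to the 2 decimals shown. E minus A was -0.63 (SE 0.23, limma adjusted p = 0.613). SLC10A4, a member of the bile acid carrier family found on synaptic vesicles, averaged 5.92 on A, 6.39 on E, 6.24 on F and 5.95 on H, and E minus A was 0.47 with the same adjusted p of 0.613. The carnitine carrier SLC22A5 had means between 9.98 and 10.14 and an F test adjusted p of 0.927. SLC22A3, an organic cation carrier, had diet means between 8.51 and 8.80 (F test adjusted p = 0.715). SLC10A2, the bile acid carrier of the ileum, averaged 3.49 over all birds, below the lower quartile, and its largest values were 5.01 in a diet H bird and 4.46 in a diet E bird.

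Among 21 sugar carriers 2 had an F p under 0.05. SLC2A11 (probe set 15432864), a facilitative hexose carrier, was 5.55, 5.63, 5.37 and 5.75 on A, 5.45, 5.69, 5.70 and 6.0 on E, 5.85, 5.75, 6.41 and 5.89 on F, and 6.09, 5.91, 6.02 and 6.15 on H. Every diet H bird and, to more decimals than shown, every diet F bird was above every diet A bird. H minus A was 0.47 (SE 0.15, limma adjusted p = 0.254), and F minus A 0.40 (adjusted p = 0.721). SLC45A4 (probe set 15464018), of a family of proton-coupled sugar carriers, was 8.80, 8.97, 8.80 and 8.53 on H and 8.45, 8.16, 8.31 and 8.04 on E, with no overlap, while diets A (8.20 to 8.62) and F (7.91 to 8.62) reached into the H range. H minus E was 0.53 (SE 0.16, adjusted p = 0.479).

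The remaining sugar carriers had no F p under 0.05. SLC5A9, a sodium-coupled mannose carrier, had means of 10.28, 10.21, 10.19 and 10.15 on A, E, F and H (F test adjusted p = 0.978). SLC37A4, which brings glucose 6-phosphate into the endoplasmic reticulum for glucose release, averaged between 8.56 and 8.73 on the 4 diets (F test adjusted p = 0.976). SLC37A1, of the same family, was higher in every diet H bird (9.40 to 9.92) than in every diet E bird (8.86 to 9.24), and H minus E was 0.56 with an adjusted p of 0.518. The diet means held between 2.61% and 2.65% of the variance of SLC37A4 and SLC5A9, and 52.6% of that of SLC2A11, against a median of 21.3% for all probe sets.

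The 32 amino acid and peptide carriers, which include the vesicular carriers SLC17A8 and SLC32A1, had no F p under 0.05. The smallest was 0.0509, for the glycine carrier SLC6A9, which was 6.62, 6.43, 6.77 and 6.36 on A, 6.26, 6.6, 6.29 and 6.07 on E, 6.6, 6.42, 6.55 and 6.50 on F, and 6.15, 6.24, 6.42 and 5.77 on H. H minus F was -0.37 (limma adjusted p = 0.842) and H minus A -0.40 (adjusted p = 0.321). SLC7A6 (probe set 15416341), which exchanges basic for neutral amino acids at the basolateral membrane, was 9.96, 10.10, 10.79 and 10.67 on A and 10.79, 10.64, 11.21 and 11.22 on H. In both diets the first 2 values, from birds with title numbers up to 25, were below the other 2. H minus A was 0.59 with an adjusted p of 0.357, and with the title range as a block its SE was 0.0994 and its adjusted p 0.0393. It was the only SLC gene called in any of the fits tried, and the block called 0.534% of all probe sets in that pair. SLC43A2, a carrier of large neutral amino acids, averaged 12.25, 12.07, 12.19 and 12.05 on A, E, F and H (F test adjusted p = 0.857), and the taurine carrier SLC6A6 10.62, 10.22, 10.54 and 10.60 (F test adjusted p = 0.723).

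Of 26 carriers of organic acids, sulphate and other anions, 1 had an F p under 0.05. SLC26A9 (probe set 15479756), a chloride carrier of epithelia, was 11.02, 11.23, 11.11 and 11.16 on A, 11.74, 11.14, 11.54 and 11.38 on E, 11.59, 11.62, 11.59 and 11.49 on F, and 11.65, 11.42, 11.19 and 11.85 on H. All diet F birds were above all diet A birds, and in diets E and H 1 bird each fell into the range of diet A. F minus A was 0.45 (SE 0.145, limma adjusted p = 0.721). SLC13A1, a sodium-coupled sulphate carrier, had the largest difference of H from A, 0.97, with birds at 8.50, 9.30, 8.38 and 9.93 on A and 9.38, 9.54, 10.49 and 10.59 on H. The ranges overlapped, and the adjusted p was 0.303. SLC26A2, another sulphate carrier, averaged 8.06 on A, 8.45 on E, 8.12 on F and 8.36 on H (F test adjusted p = 0.662). SLC16A6, a monocarboxylate carrier family member, was between 9.45 and 9.73 (F test adjusted p = 0.824).

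**Figure D2:**
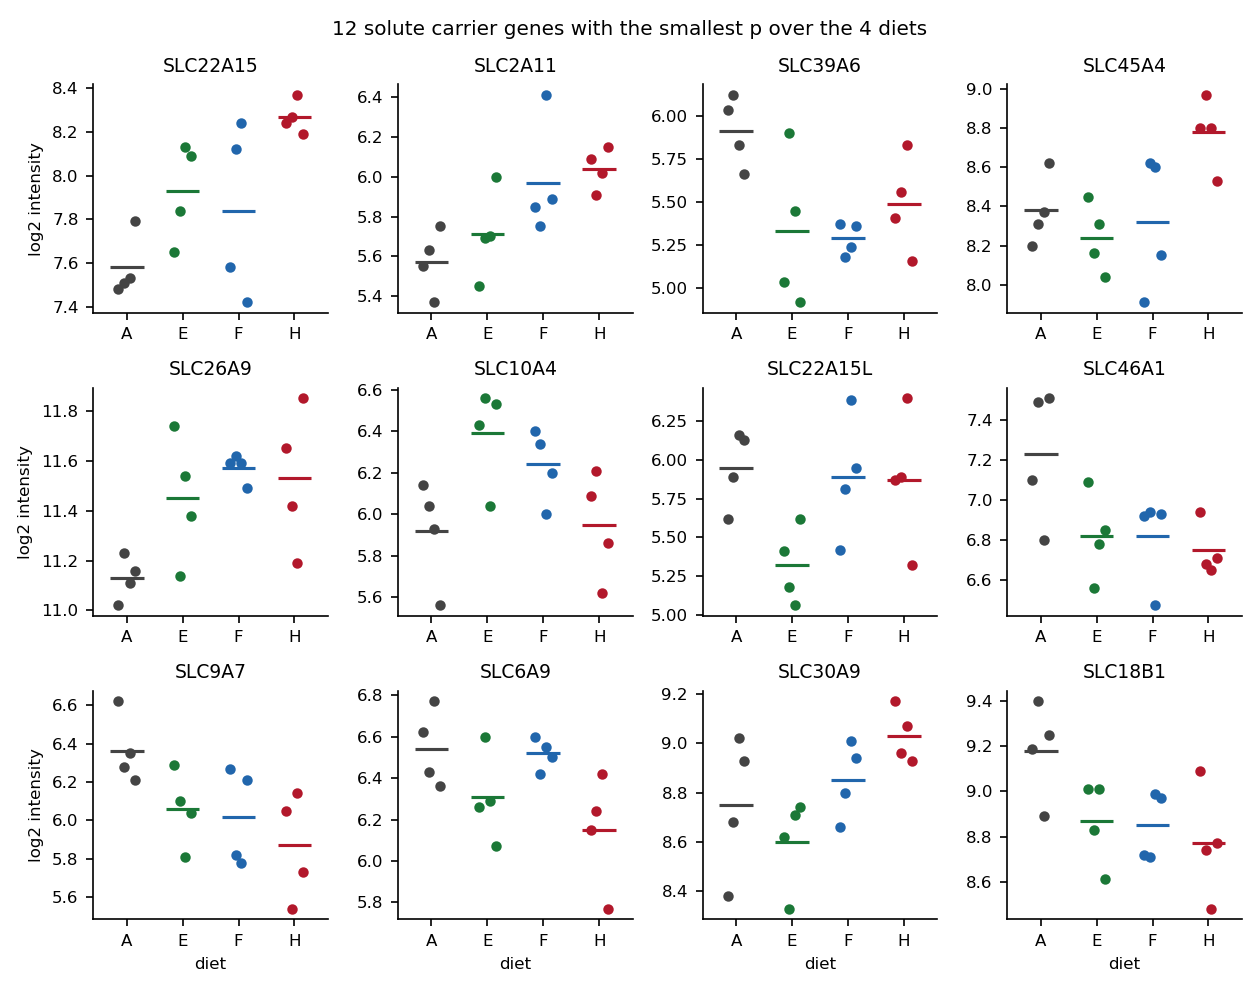
Log2 intensity (vertical axis, scaled per gene) in 16 birds for the 12 SLC genes with the smallest p over the diets. Points are birds and lines are means of 4 birds. SLC22A15 has its highest mean on diet H (birds at 8.19 to 8.37). SLC39A6, SLC46A1, SLC18B1, SLC9A7, SLC22A15L and SLC6A9 have their highest means on diet A. The birds of most diets overlap.

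Among 8 vitamin and haem carriers, SLC46A1 (probe set 15446841), the proton-coupled folate carrier of the brush border, had the smallest p. It was 7.10, 7.49, 6.80 and 7.51 on A, 7.09, 6.56, 6.78 and 6.85 on E, 6.92, 6.94, 6.47 and 6.93 on F, and 6.94, 6.68, 6.65 and 6.71 on H. The mean on A was above the other 3, with differences of -0.40 for E, -0.41 for F and -0.48 for H, but 1 of the diet A birds lay within the range of the others. The limma adjusted p was 0.615, 0.721 and 0.291. The other folate carrier, SLC19A1, had means from 8.55 to 8.64 (F test adjusted p = 0.958). The thiamine carrier SLC19A3 averaged 8.86 ± 0.57 on A and 9.28, 9.34 and 9.34 on E, F and H (F test adjusted p = 0.71), and the thiamine carrier SLC19A2 4.97 on A, 5.25 on E, 5.07 on F and 5.25 on H (F test adjusted p = 0.654). Vitamin C carrier SLC23A2 was between 7.85 and 8.10 (F test adjusted p = 0.783).

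Zinc is taken into the cytosol by SLC39 carriers and moved out of it by most SLC30 carriers. In these families 16 genes were measured, 1 with an F p under 0.05. SLC39A6 (probe set 15460915), a zinc importer, was 6.03, 6.12, 5.83 and 5.66 on A, 5.04, 5.90, 5.45 and 4.92 on E, 5.37, 5.18, 5.24 and 5.36 on F, and 5.41, 5.56, 5.83 and 5.16 on H. Every diet F bird was below every diet A bird. F minus A was -0.62 (SE 0.19, limma adjusted p = 0.721) and E minus A -0.58 (adjusted p = 0.613). SLC30A9, of the SLC30 family, was 8.93 to 9.17 on H and 8.33 to 8.74 on E, with no overlap. Its H minus E was 0.43 (limma adjusted p = 0.479). SLC30A1, the zinc exporter of the basolateral membrane, averaged 9.0, 9.19, 9.20 and 9.24 on A, E, F and H (F test adjusted p = 0.769). SLC30A4 and SLC39A9 had F test adjusted p of 0.935 and 0.742. No call was made for SLC30A8, best known from pancreatic beta cells, whose means lay between 4.09 and 4.45, at or below the lower quartile.

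None of the 7 iron, copper, magnesium and manganese carriers had an F p under 0.05. SLC11A2, which brings ferrous iron in from the lumen, ranged from 7.39 to 9.55 over the birds with nearly the same mean on A, E and F (8.50, 8.50 and 8.49) and 8.06 on H (F test adjusted p = 0.87). SLC40A1, the iron exporter of the basolateral membrane, averaged 9.85, 9.96, 9.73 and 9.79 (F test adjusted p = 0.921). The copper importer SLC31A1 averaged 10.73 to 10.86 (F test adjusted p = 0.892). SLC41A3, of a magnesium carrier family, was 0.47 higher on F than on E (unadjusted p of 0.044, limma adjusted p = 1).

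Sodium, proton, bicarbonate and chloride carriers numbered 20, and 1 had an F p under 0.05. That was SLC9A7 (probe set 15393322), a sodium-proton exchanger of the Golgi, at 6.62, 6.28, 6.35 and 6.21 on A and 6.05, 5.54, 6.14 and 5.73 on H, with all diet H birds below all diet A birds. H minus A was -0.50 (SE 0.16, limma adjusted p = 0.257). The sodium-bicarbonate carrier SLC4A7 averaged 10.34 ± 0.56 on A and 10.95 ± 0.30 on H (adjusted p = 0.371). The bicarbonate carrier SLC4A4 and the apical sodium-proton exchanger SLC9A2 had F test adjusted p of 0.869 and 0.967, and SLC9A2 was between 10.93 and 11.09 on all diets.

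The other roles held no gene with an F p under 0.05. Of 13 neurotransmitter and vesicle carriers, the vesicular polyamine carrier SLC18B1 came nearest (unadjusted p of 0.0644, F test adjusted p = 0.639), with means of 9.18 on A, 8.87 on E, 8.85 on F and 8.77 on H. The creatine carrier SLC6A8 was 8.90, 9.17, 9.24 and 9.32 on A and 9.81, 9.40, 9.64 and 9.56 on F, without overlap, and F minus A was 0.44 (adjusted p = 0.721). The serotonin carrier SLC6A4, which clears serotonin released in the mucosa, averaged 9.74, 9.89, 9.88 and 9.99 on A, E, F and H (F test adjusted p = 0.803). SLC6A2, SLC6A13 and SLC26A4 had means near or below the lower quartile, so their differences are not described further.

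Of 11 nucleoside and nucleotide sugar carriers, SLC28A2, which takes up purine nucleosides with sodium, averaged 10.58, 10.71, 10.86 and 10.77 (F test adjusted p = 0.783). SLC35B1 of the endoplasmic reticulum lay between 11.45 and 11.58 (F test adjusted p = 0.866), and SLC35A3, which brings UDP-N-acetylglucosamine into the Golgi, was 0.54 higher on H than on F (adjusted p = 0.842). Of 8 calcium exchangers and phosphate carriers, SLC20A2 and SLC8B1 had F test adjusted p of 0.857 and 0.99. Of 5 fatty acid, choline and lipid carriers, SLC44A5 was lower in every diet H bird (6.14 to 6.25) than in every diet A bird (6.35 to 6.71), a difference of -0.29 with an adjusted p of 0.473. SLC44A3 and SLC27A1 had F test adjusted p of 0.715 and 0.907, and the choline carrier SLC5A7 averaged 3.51, below the lower quartile. The scaffolds SLC9A3R1 and SLC9A3R2 and the protein SLC4A1AP had F test adjusted p of 0.736, 0.717 and 0.852.

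Some SLC genes varied widely between birds. SLC13A2 (probe set 15444748), which takes up citrate and succinate with sodium, was 8.42, 8.95, 7.38 and 10.01 on A, 9.21, 6.68, 8.17 and 8.39 on E, 6.44, 7.62, 8.47 and 8.45 on F, and 9.51, 7.69, 9.46 and 6.01 on H. Its SD over the 16 birds was 1.15, and the diet means held 9.12% of its variance. SLC6A14 (probe set 15501036), a carrier of neutral and basic amino acids driven by sodium and chloride, was 6.40, 6.16, 4.95 and 6.84 on A, 6.77, 6.41, 4.81 and 4.46 on E, 4.6, 5.81, 4.62 and 5.19 on F, and 7.07, 8.19, 6.02 and 4.63 on H. Its diet means ran from 5.06 on F to 6.48 on H, with an SD of 1.52 among the diet H birds alone and an F test adjusted p of 0.716. Birds with title numbers over 25 averaged 1.23 lower (difference -1.23) than those up to 25.

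The other 6 of the 8 most variable genes were the phosphate carrier SLC20A1 (SD 0.69), SLC10A2 (0.66), SLC37A2 (0.66), the large neutral amino acid carrier SLC7A5 (0.63), the zinc and manganese importer SLC39A8 (0.63) and SLC11A2 (0.63). In these 8 genes the diet means held between 4.6% and 24.7% of the variance, against a median of 21.3% for all probe sets. An SD over 0.5 was found in 16 SLC genes (8.6%) and in 11.1% of all probe sets.

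**Figure D3:**
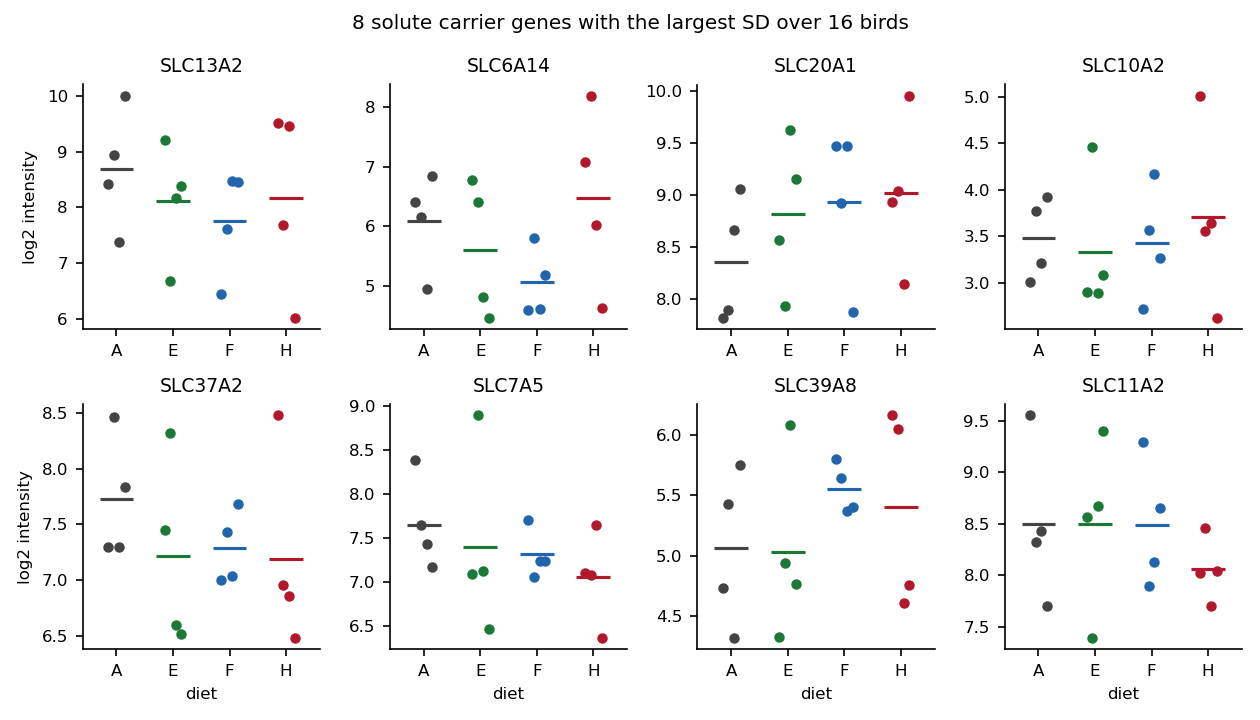
Log2 intensity (vertical axis, scaled per gene) in 16 birds for the 8 SLC genes with the largest SD over all birds. Points are birds and lines are means of 4 birds. In each panel the birds of a diet spread widely and the diets overlap. SLC13A2 runs from 7.38 to 10.01 on diet A and from 6.01 to 9.51 on diet H.

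Some of the SLC genes named above varied with the marker genes of cell types. Relations of 20 genes (the 12 with the smallest p and the 8 most variable) to the level of 3 marker lists were computed, 60 in all, by permutation with 100000 resamples and Benjamini-Hochberg adjustment over the 60. Birds were permuted without regard to diet, so these p-values do not separate differences between diets from differences between birds of a diet. SLC20A1 rose with the enterocyte marker level over the 16 birds (Pearson r = 0.88, adjusted p = 0.0009; Spearman rho = 0.86, adjusted p = 0.003), and without the 2 birds farthest from the median r was 0.84. SLC7A5 fell with it (r = -0.85, adjusted p = 0.0009; rho = -0.83, adjusted p = 0.0033; r = -0.72 without the 2 birds). For SLC20A1 r was 0.93 among title numbers up to 25, 0.83 among those over 25 and 0.86 after taking out the diet means, and for SLC7A5 it was -0.84, -0.80 and -0.85. SLC9A7 (r = -0.71, adjusted p = 0.0191; rho = -0.75, adjusted p = 0.016) and SLC6A9 (r = -0.67, adjusted p = 0.0318; rho = -0.74, adjusted p = 0.0162) also passed by both measures, with r of -0.68 and -0.62 without the 2 birds. Within the lower and upper title numbers r was -0.66 and -0.78 for SLC9A7, and -0.59 and -0.83 for SLC6A9. After taking out the diet means r was -0.56 for SLC9A7 and -0.71 for SLC6A9. SLC39A6 (r = -0.81, adjusted p = 0.0052) and SLC26A9 (r = 0.73, adjusted p = 0.0174) passed by Pearson's r only, with Spearman adjusted p of 0.0514 and 0.158. Their r was -0.73 and 0.59 without the 2 birds, -0.85 and 0.88 in the lower title numbers, and -0.72 and 0.67 in the upper. With the diet means taken out it was -0.8 for SLC39A6 and 0.58 for SLC26A9. SLC7A5 also rose with the 3 measured of 6 smooth muscle markers, whose level was 6.07 to 7.49 over the birds (r = 0.70, adjusted p = 0.0174; rho = 0.78, adjusted p = 0.0134), with r = 0.75 without the 2 birds, and 0.74 and 0.67 within the title ranges. After taking out the diet means this r was 0.67. Of the 8 most variable genes, only SLC20A1 and SLC7A5 passed with any of the 3 lists. SLC13A2 and SLC6A14, with the largest SD, had an r of -0.08 and -0.23 with the enterocyte level. With the smooth muscle level their r was -0.07 and -0.14. The marker lists and the SLC genes were measured on the same arrays.

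The cell cycle marker level had a gap between 6.83 and 7.47, with 5 birds above it (3 of diet A, 1 of E and 1 of H) and 11 below, so no relation over all birds is given. The same 5 birds had the lowest enterocyte marker levels (11.96 to 12.18, against 12.20 to 12.47). Their smooth muscle levels were 6.81 to 7.20, against 6.07 to 7.49 in the 11. None of the checks above left out all 5 birds, and relations to these 2 levels were not computed within the 11. The r over 16 birds therefore do not separate a graded relation from a difference between the 2 sets of birds. SLC7A5 was 7.43 to 8.89 in the 5 birds and 6.36 to 7.70 in the 11. SLC39A6 was 5.83 to 6.12 in the 5 birds and 4.92 to 5.66 in the 11, and SLC26A9 was 11.02 to 11.23 in the 5 and 11.16 to 11.85 in the 11. Both genes had values that did not overlap between diets A and F, and diet F had no bird among the 5. The part of cell cycle or enterocyte content in those diet differences was not tested. Within the 11 birds, 1 of the 20 genes passed, SLC6A9 (r = 0.84, adjusted p = 0.0174), but not by Spearman's rho (0.65, adjusted p = 0.158), and r was 0.47 without the 2 birds farthest from the median, so the relation rests on those birds. SLC7A5 had an r of 0.73 with the cell cycle level there (rho = 0.6, permutation adjusted p = 0.0999 and 0.209) and did not pass. Without the 2 birds its r was -0.05. SLC22A15 had an r of -0.38 with the cell cycle level there (rho = -0.24, permutation adjusted p = 0.452 and 0.691). With the enterocyte level over 16 birds its r was 0.59 (adjusted p = 0.1) and its rho 0.51 (adjusted p = 0.204), r being 0.57 without the 2 birds, 0.63 and 0.51 within the title ranges and 0.44 after taking out the diet means. SLC22A23, the gene most like it, had an r of 0.76 with that level. The next closest, SLC38A4, SLC2A11 and SLC45A4, had an r of 0.69, 0.54 and 0.3. For SLC2A11 and SLC45A4 the relation was tested and did not pass. For SLC22A23 and SLC38A4 it was not tested.

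Over all 186 SLC genes, 17 (9.14%) had an r above 0.6 with the enterocyte level and 11 (5.91%) an r below -0.6, against 5.83% and 8.14% of all probe sets. The positive ones included SLC9A8, SLC9A3, SLC28A2, SLC6A8 and SLC13A1, and the negative ones SLC48A1, SLC1A4, SLC7A3 and SLC16A1, all of these r being descriptions over 16 birds.

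**Figure D4:**
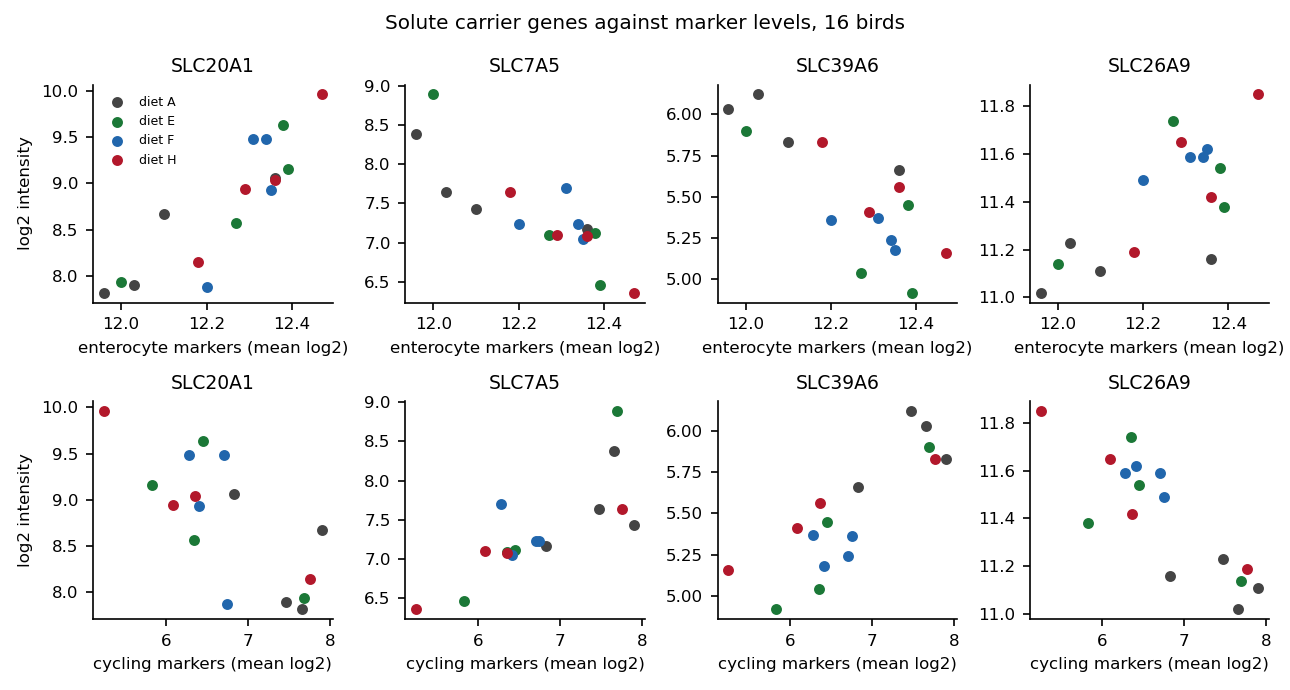
Log2 intensity of SLC20A1, SLC7A5, SLC39A6 and SLC26A9 (vertical axes) against the mean log2 level of 5 enterocyte markers (upper row) and 5 cell cycle markers (lower row) in 16 birds, coloured by diet. SLC20A1 is higher and SLC7A5 lower at higher enterocyte levels (r = 0.88 and -0.85), and 5 birds stand at cell cycle levels above 7.47 or at it, 3 of them of diet A. The same 5 birds have the lowest enterocyte levels.

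Pairs of SLC genes also varied together over the 16 birds. The closest were SLC20A1 with the sodium-proton exchanger SLC9A8, the haem carrier SLC48A1 with the scaffold SLC9A3R2, and SLC4A7 with SLC35A3, each with r = 0.89. In the RefSeq order of genes, 16 pairs lie within 3 genes of each other. The adjacent carnitine and cation carriers SLC22A4 and SLC22A5 had an r of 0.47, the adjacent drug and toxin exporters SLC47A2 and SLC47A1 0.53, and SLC46A1 and its neighbour SLC13A2 0.49. The basic amino acid carrier SLC7A1 and SLC46A3, which lie 2 genes apart, ran opposite to each other (r = -0.83). SLC2A11 and its adjacent like gene SLC2A11L1 had an r of -0.42. The 16 pairs ran from -0.83 to 0.61, the latter for SLC35B2 and SLC29A1.

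For 8 genes more than 1 probe set was measured, and these did not always vary alike. The 2 probe sets of SLC6A8 had an r of 0.89, with H minus A of 0.29 and 0.19, and the further probe sets of the magnesium carrier SLC41A1 had r of 0.82 and 0.70 with the one used. The probe sets of the lactate and butyrate carrier SLC16A1 had an r of -0.36, with H minus A of -0.19 for the one used, 0.38 for the other and 0.09 for their mean, so the direction for this gene depends on the probe set. The probe set of SLC16A1 that was not used averaged 5.07, against 8.16 for the one used. The probe sets of SLC23A2 (r = -0.27), SLC28A2 (-0.33), SLC9A3R2 (-0.15), SLC29A3 (0.08) and SLC45A3 (0.18) were also unlike. In the last 4 genes the probe set not used was again lower, at 5.63, 4.41, 3.41 and 4.98, against 10.73, 5.99, 6.44 and 7.74. The means 4.41 and 3.41 lay below the lower quartile. For SLC23A2 the levels were closer, at 7.53 and 7.99. Taking the mean of a gene's probe sets left 0 adjusted calls.

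Genes that work with the carriers gave no adjusted call either. Of a list of 21 pumps and channels that set the gradients, 13 were measured and 3 had an F p under 0.05. Of 20 partner and scaffold proteins 13 were measured and 2 had one, and of 12 metal-handling proteins 8 were measured and 2 had one. These small counts stand against 8.15% of all probe sets, and no difference from that share was tested. KCNQ1, a basolateral potassium channel, averaged 6.69 ± 0.26 on A, 6.28 ± 0.19 on E, 5.99 ± 0.35 on F and 6.12 ± 0.23 on H (SD, n = 4), with no overlap between A and F or between A and H, F test adjusted p = 0.581 and adjusted p of 0.721 and 0.25 in those pairs. CA4, a membrane carbonic anhydrase, averaged 4.92 ± 0.13 on A and 5.87 ± 0.34 on H (difference 0.95, adjusted p = 0.255), and HEPH, which oxidizes iron leaving through SLC40A1, 10.30 ± 0.15 and 10.65 ± 0.07 (0.35, adjusted p = 0.24). The potassium channel KCNJ16 and CFTR (both with an F p under 0.05) each lay below the lower quartile on 11 of 16 arrays, so their differences are not described.

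Of the 16 carriers left out by name, 14 were measured, of which 3 (SLC38A2, SLC6A19 and SLC12A2) had an F p under 0.05, against 8.15% of all probe sets, and 0 had an adjusted call. Their median H minus A was 0.40, against 0.026 for the 186 genes and 0.001 for all probe sets. The 5 enterocyte markers were also all higher on H than on A, with a median of 0.25. Neither the difference between these medians nor the part of enterocyte content in it was tested.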

How the data were processed

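Jejunal RNA (Qiazol, RNeasy) was copied and biotin-labelled with Ambion and Affymetrix whole-transcript kits and hybridised to 1-colour arrays, 1 per bird, per the labels' protocols. The deposited values lie between 0.79 and 14.48 and were read as log2 intensities; how the authors summarized and normalized them, and the logarithm's base, is not given in the sources used here, and base 2 was inferred from range and medians. GCOS 1.1.1 is named per the submitters' processing notes. No depth applies to arrays, and their number limits the precision.

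Symbols came from GEO's annotation of the platform: 12300 probe sets had 1 symbol, 256 several and 8248 none, and 7 SLC probe sets with several symbols were not used. Of the 186 genes, 180 had their Entrez number in the RefSeq gene table (assembly GRCg7b, used for names and gene order only), and 0 symbols differed. No sequence is shown.

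With limma 3.58.1 in R 4.3.3, the 16 arrays were fitted jointly with 4 diet means (lmFit, eBayes), which gave an F test and 6 contrasts. P-values were adjusted (Benjamini-Hochberg) across the 20804 probe sets, with 0.05 as the threshold. The procedure was run on simulated data, where recovery was required only of differences larger than any described here for an SLC gene. Recovery of smaller differences is not given, so this check does not show what sizes could be missed. Relations to marker levels used SciPy 1.17.1 and permutation, and figures matplotlib 3.10.9. The members, roles, lists and tests were chosen with earlier results of these data known. Genes were named by rule: the 12 smallest F p, the 3 higher and 3 lower with the smallest p per pair, the 12 highest means, the 8 largest SD, the 3 highest means per role, the 4 most alike to each of the 2 smallest F p, and 4 partner genes; others named were chosen after their values were seen. Alternatives tried were median centring, quantile normalization, dropping the lowest 25% of probe sets, title number range or neighbouring numbers as blocks, array weights, distinct profiles only, the mean of a gene's probe sets, only the diets compared, and leaving out each bird. Fits within each title range were added after seeing the data.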

Additional observations from a re-analysis of the deposited data

Results flagged for a closer look

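A bird far from the other 3 of its diet was found 15 times in 260 groups of 4 birds (65 genes in 4 diets) by Dixon's ratio of the gap to the range; chance alone marks about 1 in 20 groups. Diet E replicate 2 stood apart in 3 genes, with SLC10A2 at 4.46 (nearest other bird 3.08), SLC19A1 at 8.39 (8.65) and SLC28A2 at 10.09 (10.86). This bird is also one of the 5 with a high cell cycle level. Diet H replicate 3, another of the 5, stood apart in SLC26A4 at 2.63 (2.96) and SLC6A13 at 3.85 (4.36). Diet F replicate 4 was apart in SLC22A23 at 7.91 (8.66) and SLC26A4 at 3.39 (3.11), and diet F replicate 2 in SLC19A2 at 5.35 (5.02) and SLC30A8 at 4.22 (4.12). The other groups gave SLC16A6 at 10.14 in diet F replicate 1 (9.53), SLC46A1 at 6.47 in diet F replicate 3 (6.92), SLC19A2 at 5.01 in diet E replicate 3 (5.31), SLC35B1 at 11.67 in diet A replicate 2 (11.43), SLC44A3 at 6.74 in diet A replicate 1 (7.47) and SLC9A3R2 at 5.46 in diet H replicate 4 (5.96). The cause was not tested.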

How the results depend on the processing

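The count of SLC genes at an adjusted p under 0.05 was 0 in every comparison and setting tried, except H minus A when the range of title numbers was a block, where it was 1 (SLC7A6). Of 45 signed differences of single SLC genes followed through the settings, 44 kept their sign; H minus A of SLC16A1 went from -0.19 to 0.09 when its probe sets were averaged, because they differ in sign. Counts at an unadjusted p under 0.05 moved by more than 1.5 times as follows, and the cause was not tested. For E minus A (15 genes) quantile normalization gave 9 (4.84%, all probe sets 6.63%) and median centring 8 (4.3%, all 8%). The title range as a block gave 18 for the F test (9), 14 for F minus A (7), 15 for H minus E (9) and 18 for H minus F (9); these are 9.68%, 7.53%, 8.06% and 9.68% of the SLC genes, against 13.2%, 9.03%, 14% and 9.37% of all probe sets, whose counts rose too. Neighbouring title numbers as a random block (correlation 0.173) gave 2 for the F test, 4 for E minus A, 4 for F minus A and 1 for F minus E (2), which are 1.08%, 2.15%, 2.15% and 0.538%, against 4.36%, 4.98%, 4.25% and 1.61% of all probe sets. Array weights gave 14 for F minus A (7.53%, all 9.47%) and 6 for F minus E (3.23%, all 3.87%), and using only the diets compared gave 11 for F minus A (5.91%, all 8.71%). Within title numbers up to 25, counts were 19 for the F test, 13 for F minus A, 7 for F minus E and 16 for H minus E, and within those over 25, 3 for F minus A, 10 for H minus A (18) and 11 for F minus E. As shares of the SLC genes these were 10.2%, 6.99%, 3.76% and 8.6% (all probe sets 11.3%, 10.5%, 6.18% and 12.2%) and 1.61%, 5.38% and 5.91% (3.86%, 7.29% and 5.65%). Leaving out single birds gave 5 to 14 for the F test, 7 to 23 for E minus A, 5 to 15 for F minus A, 10 to 25 for H minus A, 1 to 9 for F minus E, 3 to 16 for H minus E and 2 to 18 for H minus F. The highest counts came without diet E replicate 2 for the F test, E minus A, H minus A and F minus E, without diet F replicate 4 for F minus A, and without diet H replicate 2 for H minus E and H minus F. The lowest came without diet A replicate 2 for the F test, diet A replicate 1 or diet E replicate 4 for E minus A, diet F replicate 2 for F minus A, diet H replicate 4 for H minus A, diet A replicate 4 or diet H replicate 1 for F minus E, diet H replicate 3 for H minus E and diet F replicate 1 for H minus F. In the order of the comparisons above, the highest counts were 7.53%, 12.4%, 8.06%, 13.4%, 4.84%, 8.6% and 9.68% of the SLC genes. Without the same birds, all probe sets gave 8.79%, 9.96%, 6.59%, 12.8%, 3.72%, 11.1% and 6.98%. The lowest counts were 2.69%, 3.76%, 2.69%, 5.38%, 0.538%, 1.61% and 1.08%. All probe sets then gave 6.79%, 7.24% or 5.6%, 4.59%, 7.42%, 2.96% or 2.72%, 7.21% and 3.44%. Leaving out the lowest 25% of probe sets removed 38 of the 186 genes. No paired analysis was possible because the labels give no replicate number shared between the diets. Background may enter the values of the 26 genes below the lower quartile on all arrays.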
